A study of Mus musculus with 2 samples.

Results

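*Gdpd3* and 8 of its neighbors on mouse chromosome 7 (*Coro1a*, *Mapk3*, *Ypel3*, *Tbx6*, *Ppp4c*, *Aldoa*, *Ino80e* and *Taok2*) were followed through the cell types of a tumor cell sort, 9 genes of the 32285 in the matrices. *Gdpd3* was chosen because its UMI count differed between the libraries, and the neighbors were chosen by position, so the *Gdpd3* difference is given as a description. The question was whether every host cell type and the adjacent genes shared that difference. RNA of single cells was read in 1 control and 1 Dnmt1iECKO library (10x Genomics droplets), each made from live CD31+CD45- cells sorted from YUMMER1.7 tumors, a mouse melanoma line, of 3 pooled mice. The labels place the tumors under the skin and the study's text places them in the lung, and the cells below include clusters led by lung alveolar genes. The mice were female and 8 to 10 weeks old. The labels give the Dnmt1iECKO genotype as Cdh5CreERT2;Dnmt1fl/fl;ZsGreenlsl/lsl and the control genotype as C57BL/6, while the study's text gives control mice that also carried the Cre and the reporter. Tamoxifen, per the study's text, activates a Cre driven by the endothelial *Cdh5* promoter. With 1 pool of mice per group, deletion of *Dnmt1* in endothelium, any other genetic difference between the mice, and the library itself cannot be told apart, and no difference below has a test.

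*Gdpd3* encodes a glycerophosphodiester phosphodiesterase domain protein, a lysophospholipase D that releases lysophosphatidic acid from lysophospholipids. DNMT1 copies DNA methylation onto the new strand at CG pairs when cells divide, and promoters with many CG pairs are mostly unmethylated in normal tissue. The neighbors have unrelated roles, among them a MAP kinase, a phosphatase subunit, a glycolytic enzyme and a leukocyte actin regulator.

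In the GENCODE M21 annotation of GRCm38, *Gdpd3* (ENSMUSG00000030703) lies at chr7:126766334-126775649 on the plus strand, and its protein-coding transcript has 10 exons. *Mapk3* ends 514 bp before it and *Ypel3* starts 1305 bp after it, both on the same strand. *Tbx6*, *Ppp4c* and *Aldoa* follow at gaps of 5833, 10216 and 19584 bp, *Ino80e* and *Taok2* at 75310 and 90028 bp, and *Coro1a* lies 58546 bp on the other side. The antisense transcript *Gm9967* overlaps *Gdpd3*.

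RefSeq promoter windows on GRCm38.p6, from 250 bases before to 50 bases after a start, matched 8 of the 9 members, and *Mapk3* had none. The table held 32851 such windows, of which 94.6% had at least 1 CG pair, a motif that reads the same on both strands. The *Gdpd3* window held 7 CG pairs, equal to the median of all windows. The *Tbx6* window also held 7 and the *Ypel3* window 28, while 14.2% of all windows held at least 28. Over the 13 windows of the 8 genes the count ran from 0, at 1 of 3 *Aldoa* starts, to 36 at *Ppp4c*. The bases before both the RefSeq and the GENCODE start are shown for the 3 plus-strand members with a window. The pairs that DNMT1 acts on are marked. Capitals mark CG, and the stretches are chr7:126766164-126766333, chr7:126776713-126776954 and chr7:126781233-126781482, all on the plus strand.
Gdpd3: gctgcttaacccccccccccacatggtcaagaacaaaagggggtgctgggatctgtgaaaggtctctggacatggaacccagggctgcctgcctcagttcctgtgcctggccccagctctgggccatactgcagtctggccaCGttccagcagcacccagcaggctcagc
Ypel3: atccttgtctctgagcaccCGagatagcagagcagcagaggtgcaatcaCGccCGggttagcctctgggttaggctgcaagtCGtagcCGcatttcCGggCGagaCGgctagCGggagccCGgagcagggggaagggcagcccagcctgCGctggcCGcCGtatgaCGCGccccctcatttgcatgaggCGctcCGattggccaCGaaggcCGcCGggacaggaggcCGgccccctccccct
Tbx6: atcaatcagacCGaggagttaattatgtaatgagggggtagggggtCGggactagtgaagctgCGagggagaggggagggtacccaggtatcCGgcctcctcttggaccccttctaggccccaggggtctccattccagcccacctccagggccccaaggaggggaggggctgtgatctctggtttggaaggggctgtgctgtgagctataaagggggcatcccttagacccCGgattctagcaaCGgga
The stretches differ in length, so their counts are not compared: the *Gdpd3* stretch of 170 bases has 1 of the 7 CG pairs of its window, the *Ypel3* stretch of 242 bases has 21, and the *Tbx6* stretch of 250 bases has 6. Methylation was not measured in these files.

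The control library had 9301 cells and 123830489 UMIs (median 8904 per cell) and the Dnmt1iECKO library 9522 cells and 141433493 UMIs (median 8762), of which 7764 and 7839 cells were kept. The libraries shared 29 barcodes. The kept cells fell into 40 clusters, 10 of them unnamed, and classes named from markers carry the ending "-like". Although the sort was for CD45- cells, T-like, B-like and macrophage-like cells were present and made up more of the Dnmt1iECKO library, with 368 and 1654 T-like cells in the control and Dnmt1iECKO libraries. Endothelial-like cells numbered 4148 and 1744. A T-like cluster of 260 cells, led by *Arpp21* and with *Rag1* among its leading genes, had no control cell. *Dnmt1* was at 50.9 CPM (UMIs per 1000000 UMIs of the class) in control and 27.9 in Dnmt1iECKO endothelial-like cells (log2 ratio −0.87, 95% interval −0.99 to −0.75). *Dnmt1* was also lower in pericyte-like cells (log2 −1.15, −1.87 to −0.48), epithelial-like cells (−0.49, −0.88 to −0.11) and B-like cells (−0.41, −0.66 to −0.14). In macrophage-like cells *Dnmt1* was at 39.2 and 38.6, in T-like cells at 89.0 and 129, and in putative tumor cells at 88.2 and 90.3. The deleted part of *Dnmt1* is not given in the sources used here, and these reads come from 3' ends, so the level does not check the deletion itself.

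*Gdpd3* was higher in the Dnmt1iECKO library in all 7 host classes set by the rule. In endothelial-like cells, *Gdpd3* had 353 control and 3552 Dnmt1iECKO UMIs, or 6.59 CPM (exact Poisson 95% interval 5.92 to 7.32) and 145 CPM (140 to 150), a 22.0-fold difference. In T-like cells the counts were 1 and 2772 UMIs, or 0.267 and 158 CPM, a ratio with an interval from 106-fold to 23294-fold. In B-like cells they were 2 and 1027 UMIs, or 0.684 and 127 CPM, with an interval from 51.3-fold to 1535-fold. The control values of these lymphocytes thus rest on at most 2 molecules, and the Dnmt1iECKO values on at least 1027. These and all later intervals cover counting error only, not the spread between mice or libraries.

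In macrophage-like cells, *Gdpd3* had 69 and 2982 UMIs, or 8.98 and 144 CPM, a log2 ratio of 4.0 (3.66 to 4.37). Fibroblast-like cells had 14 and 394 UMIs, or 2.19 and 52.0 CPM, a log2 ratio of 4.57 (3.81 to 5.46). Pericyte-like cells had 14 and 398 UMIs, or 6.20 and 274 CPM, a log2 ratio of 5.47 (4.70 to 6.35). Epithelial-like cells, led by alveolar genes such as *Sftpc* and *Ager*, had 10 and 122 UMIs, or 1.57 and 29.6 CPM, a log2 ratio of 4.24 (3.31 to 5.34). The smallest fold of the 7 host classes was thus the 16.0-fold (12.6 to 20.6) of macrophage-like cells. Its interval overlapped those of endothelial-like (19.7 to 24.6), fibroblast-like (14.0 to 43.9) and epithelial-like cells (9.93 to 40.4). Without cells holding a *Cdh5* or *Pecam1* UMI, the epithelial-like log2 ratio fell to 2.65.

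**Figure D1:**
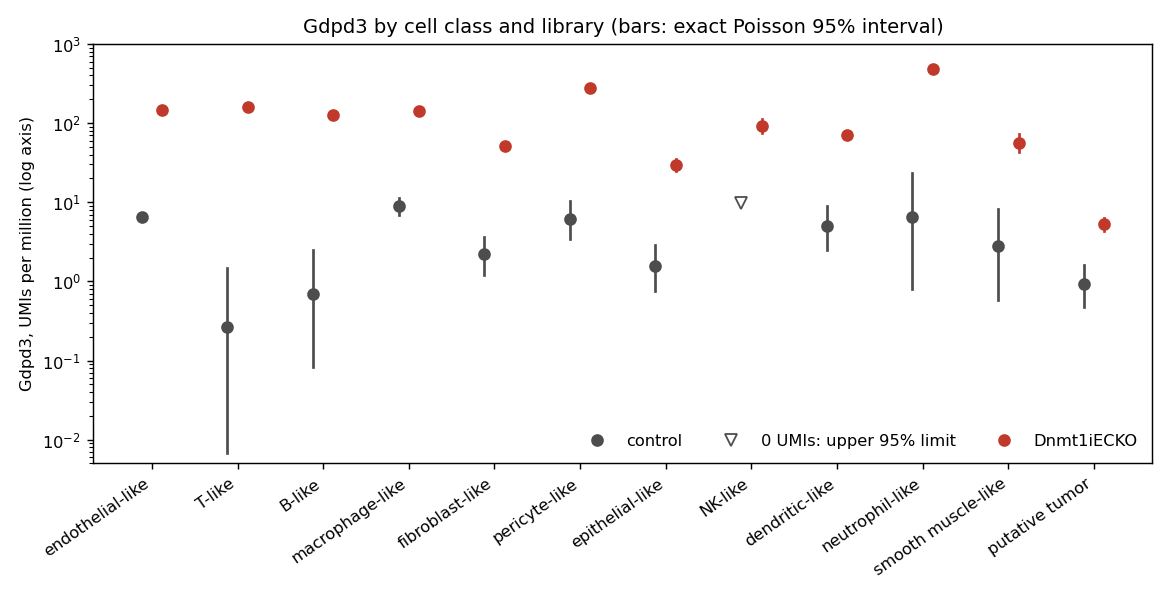
Gdpd3 in CPM (log axis) for 12 cell classes in the control (grey) and Dnmt1iECKO (red) libraries, with exact Poisson 95% intervals and an open triangle at the upper limit where no UMI was counted. Neutrophil-like cells of the Dnmt1iECKO library are highest at 480 CPM, and putative tumor cells are lowest there at 5.28 CPM.

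Smaller classes outside the rule showed the same direction. Neutrophil-like cells had 2 and 754 *Gdpd3* UMIs, or 6.58 and 480 CPM, the highest level of any class. Dendritic-like cells had 11 and 346 UMIs (4.95 and 69.8 CPM), and smooth muscle-like cells had 3 and 58 (2.79 and 56.7 CPM). NK-like cells had 0 and 103 UMIs, at least 9.27-fold higher by the exact interval of the ratio (11.6-fold with the control count set to a floor of 3). Of the 40 clusters, 39 held cells of both libraries, and *Gdpd3* was higher in Dnmt1iECKO in 39 of them, with 39 intervals of the log2 ratio above 0.

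The order of classes was not the same in the libraries. In the Dnmt1iECKO library *Gdpd3* was highest in neutrophil-like cells, then pericyte-like, T-like and endothelial-like cells, and lowest in fibroblast-like, epithelial-like and putative tumor cells. The pericyte-like class also held much *Cdh5*, with a UMI in 69.7% of control and 72.1% of Dnmt1iECKO cells and a level of 876 and 1110 CPM, against 1464 and 1418 CPM in endothelial-like cells. The smooth muscle-like cluster passed 10 pericyte markers, against 8 in the pericyte-like cluster. It held a *Cdh5* UMI in 33.3% of control and 7.95% of Dnmt1iECKO cells, with *Gdpd3* at 2.79 and 56.7 CPM. The part of endothelial transcripts in the *Gdpd3* level of the pericyte-like class was not tested. Among neighbors in that order, the intervals of endothelial-like and macrophage-like cells (145 and 144 CPM) overlapped, as did those of NK-like and dendritic-like, of dendritic-like and smooth muscle-like, and of smooth muscle-like and fibroblast-like cells. In the control library, macrophage-like cells (8.98 CPM) and endothelial-like cells (6.59 CPM) were highest and T-like cells (0.267 CPM) and NK-like cells (0) lowest, and every class overlapped the next. Against the adjacent *Mapk3* as a reference within each library, there were 2.96 *Gdpd3* UMIs per 100 *Mapk3* UMIs in control endothelial-like cells and 62.5 in Dnmt1iECKO endothelial-like cells. The same ratio went from 0.962 to 861 in T-like cells. Its control value rests on 1 *Gdpd3* and 104 *Mapk3* UMIs. *Mapk3* was itself lower in Dnmt1iECKO T-like cells (log2 −0.60), which raises the ratio there.

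*Gdpd3* varied among the 9 endothelial-like clusters. The clusters led by *Tmeff2*, *Bdkrb2* and *Ednrb*, which share *Ednrb*, *Fibin* and the lung capillary gene *Car4* among their leading genes, were highest in the Dnmt1iECKO library, at 307, 254 and 223 CPM against 5.13, 2.61 and 5.56 CPM in control. The cluster led by *Bmp6* and *Kit* was at 110 CPM against 13.9, the highest control level of the 9. The cluster led by the mitotic gene *Cenpf* was at 83.4 against 7.83 CPM. The cluster led by *Selp*, *Slc6a2* and *Vwf* was lowest, with 18 control and 66 Dnmt1iECKO UMIs, or 6.83 and 20.3 CPM. The fold thus ran from 2.98 (1.75 to 5.33) in the *Selp*-led cluster to 97.5 (56.4 to 185) in the *Bdkrb2*-led cluster, and these intervals do not overlap. Clusters were made without *Gdpd3*, the other members and all genes within 1 Mb of it.

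**Figure D2:**
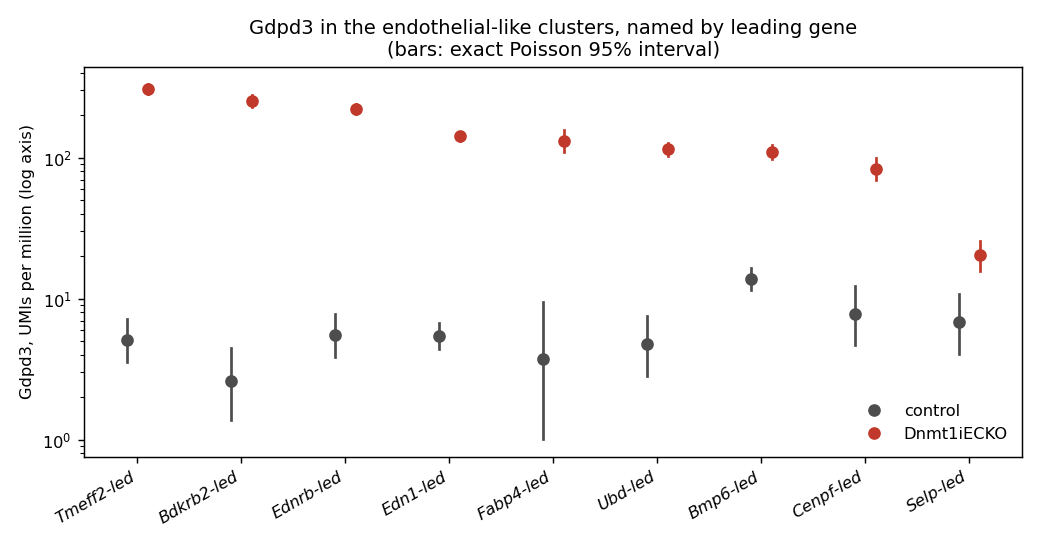
Gdpd3 in CPM (log axis) in the 9 endothelial-like clusters, ordered by the Dnmt1iECKO level (red) with the control level in grey and exact Poisson 95% intervals. The Tmeff2-led cluster is highest at 307 CPM and the Selp-led cluster lowest at 20.3 CPM in the Dnmt1iECKO library.

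Within other classes the level also varied. The T-like cluster led by *Tnfsf8* was at 239 CPM in the Dnmt1iECKO library, and the *Arpp21*-led cluster at 44.5 CPM. Without that cluster the T-like class had 1 and 2633 UMIs, or 182 CPM in Dnmt1iECKO. The macrophage-like clusters led by *Gpnmb* and *Ccl8* were at 165 and 130 CPM. In fibroblast-like clusters the level ran from 10.8 CPM in the *Dcn*-led cluster (15 UMIs) and 43.6 in the *C7*-led cluster to 316 in the *Mfap4*-led cluster (126 UMIs). The *Mfap4*-led cluster had a *Cdh5* UMI in 44.9% of its cells, against 7.61% in the *Dcn*-led cluster. Among epithelial-like clusters, the cluster led by the alveolar type 1 gene *Ager* was at 71.5 CPM with *Cdh5* in 41.6% of cells, and that led by the surfactant gene *Sftpc* at 14.6 CPM with *Cdh5* in 21.0%. Among the 10 unnamed clusters the Dnmt1iECKO level ran from 2.45 CPM in the *Upk3b*-led cluster (11 UMIs) and 2.58 in the *Hmga2*-led cluster to 306 in the *AY036118*-led cluster.

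The levels were recomputed without cells in which an endothelial transcript was seen, although a cell without such a UMI may still hold endothelial RNA. After removing every cell with a UMI of *Cdh5* or *Pecam1*, which leukocytes also express, the 750 remaining T-like cells were at 180 CPM and the 466 macrophage-like cells at 156 CPM in the Dnmt1iECKO library, so *Gdpd3* was as high without the removed cells. Fibroblast-like cells were at 38.6 CPM (203 UMIs) against 2.09 in control, and only 14 pericyte-like cells of the Dnmt1iECKO library were left, too few for a level. Epithelial-like cells fell to 21 UMIs, or 8.81 CPM (5.45 to 13.5), against 1.40 in control (0.455 to 3.27). Putative tumor cells with the same exclusion were at 5.50 CPM (4.26 to 6.98), so these intervals overlap, and the epithelial-like level above that of the tumor cells was not detectable at this depth.

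Putative tumor cells were those with at least 1 UMI of *Hmga2* outside the named host clusters, 357 control and 418 Dnmt1iECKO cells. Their *Gdpd3* count was 12 and 111 UMIs, or 0.918 and 5.28 CPM, a log2 ratio of 2.52 (1.66 to 3.52). In the Dnmt1iECKO library this was 4.48% of the *Gdpd3* level over all kept cells. Genes that tumor cells should lack stood at like shares there, the leukocyte genes *Coro1a* at 5.07% and *Ptprc* at 5.78%, and the endothelial gene *Cdh5* at 3.53%. In the control library *Gdpd3* in tumor cells was at 18.5% of its level over all kept cells, on 12 UMIs (counting interval 9.55% to 32.3%), above the 3.62%, 4.90% and 3.09% of those genes. The class holds cells of every unnamed cluster with an *Hmga2* UMI, those of the leukocyte gene-rich clusters led by *Kcnip4* and *Adgre4* included, and up to 38 *Coro1a* UMIs in a cell, so these shares are not a clean background. In the 227 and 271 cells with at least 3 *Hmga2* UMIs, *Gdpd3* was at 0.805 and 2.50 CPM and *Coro1a* at 3.22 and 3.83 CPM. Whether the tumor cells themselves express *Gdpd3* was not tested. The putative tumor cells also differed in depth, with a median of 4653 UMIs in control and 30886 in Dnmt1iECKO.

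The share of cells with a *Gdpd3* UMI gave a like picture in most classes after each cell was thinned to 2000 UMIs. In endothelial-like cells it was 1.64% in control (67 of 4081 cells) and 23.4% in Dnmt1iECKO (398 of 1700), with 67 and 44 shallower cells left out. Without thinning the shares were 7.47% and 57.0%. In T-like cells the thinned share was 0 of 359, which allows up to 0.836% at 3 cells (Clopper-Pearson upper limit 1.02%), and 23.2%. In pericyte-like cells it was 0.775% and 49.2%, and in neutrophil-like cells 0 of 54, which allows up to 5.56% at 3 cells (Clopper-Pearson 6.60%), and 42.4%. Putative tumor cells had 0.395% (1 of 253) and 0.958% (3 of 313). Epithelial-like cells had 0 of 304, which allows up to 0.987% at 3 cells (Clopper-Pearson 1.21%), and 2.76% (4 of 145). In both classes, as in dendritic-like and smooth muscle-like cells, the intervals of the libraries overlapped, so a difference in share was not shown. Unthinned, 13.2% of the Dnmt1iECKO putative tumor cells, at a median of 30886 UMIs, had a *Gdpd3* UMI, against 57.0% of endothelial-like cells at a median of 11222.5. The highest count in a cell was 5 in control and 23 in Dnmt1iECKO endothelial-like cells.

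**Figure D3:**
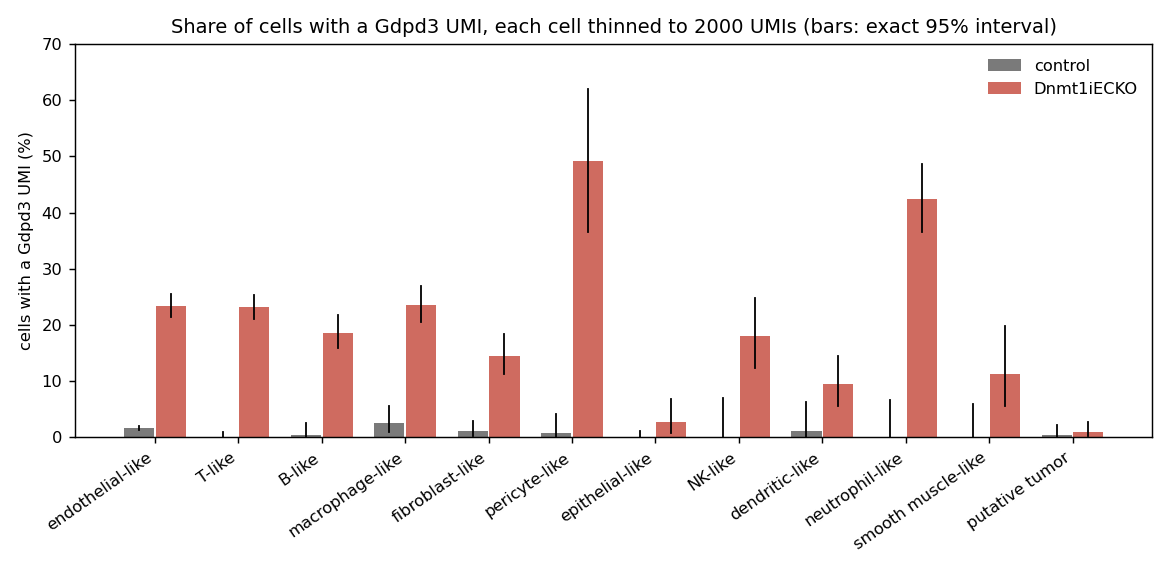
Percent of cells with at least 1 Gdpd3 UMI after thinning each cell to 2000 UMIs, for 12 classes in the control (grey) and Dnmt1iECKO (red) libraries, with exact Clopper-Pearson 95% intervals as lines. Pericyte-like cells, of which 72.1% hold a Cdh5 UMI, reach 49.2% and putative tumor cells 0.958% in the Dnmt1iECKO library.

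The genes on either side did not share the difference. *Mapk3*, the ERK1 kinase, had 11928 UMIs in control and 5687 in Dnmt1iECKO endothelial-like cells, or 223 and 232 CPM, a log2 ratio of 0.06 (0.02 to 0.11). In T-like cells it was at 27.8 and 18.3 CPM (log2 −0.60, −0.93 to −0.27), in fibroblast-like cells at 92.0 and 77.4 (−0.25, −0.42 to −0.08) and in epithelial-like cells at 91.3 and 68.7 (−0.41, −0.62 to −0.20). The T-like value, 1.52-fold lower, was the farthest from equal of the 7 host classes, and intervals lay on opposite sides of 0 in different classes. With classes from marker gates the *Mapk3* log2 ratio turned to 0.88 in T-like and 0.26 in epithelial-like cells, and as the mean of CPM over cells the pericyte-like value went from 0.22 to 0.0012.

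*Ypel3*, a yippee-like protein linked to cell senescence, was at 106 and 92.5 CPM in endothelial-like cells (log2 −0.20, −0.27 to −0.13). In T-like cells it was at 154 and 129 CPM (−0.26, −0.39 to −0.12), and in macrophage-like cells at 56.3 and 83.8 CPM (0.57, 0.42 to 0.73). *Tbx6*, a T-box factor of the embryonic mesoderm, was low, with 60 and 28 UMIs in endothelial-like cells (1.12 and 1.14 CPM) and at most 19 UMIs in any other host class and library.

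*Ppp4c*, the catalytic subunit of protein phosphatase 4, was at 77.1 and 76.7 CPM in endothelial-like cells (log2 −0.01, −0.09 to 0.07), and the interval included 0 in all 7 host classes. *Aldoa*, the glycolytic enzyme aldolase A, was at 187 and 166 CPM in endothelial-like cells (−0.17, −0.22 to −0.12), at 272 and 225 in T-like cells (−0.27, −0.37 to −0.17), and at 472 and 549 in putative tumor cells (0.22, 0.17 to 0.26). A further gene identifier with the symbol *Aldoa* had 14 and 11 UMIs over all cells and was kept apart. *Ino80e*, a subunit of the INO80 chromatin remodeler, was at 20.7 and 19.1 CPM (−0.12, −0.28 to 0.04), and *Taok2*, a kinase of the TAO family, at 101 and 95.8 CPM (−0.08, −0.15 to −0.01). Each of these differences was far below that of *Gdpd3* in the same cells.

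*Coro1a*, which encodes the leukocyte actin regulator coronin 1A, was the exception. It was at 758 and 764 CPM in T-like cells (log2 0.01, −0.05 to 0.07), at 481 and 605 in B-like cells (0.33, 0.24 to 0.42), and at 324 and 420 in macrophage-like cells (0.37, 0.31 to 0.44). In classes with little of it, *Coro1a* was higher in the Dnmt1iECKO library, with 68 and 154 UMIs in endothelial-like cells (1.27 and 6.29 CPM, log2 2.31, 1.89 to 2.74). In fibroblast-like cells it was at 3.90 and 11.9 CPM, in pericyte-like cells at 15.5 and 48.9, in epithelial-like cells at 10.2 and 26.2, and in putative tumor cells at 3.52 and 15.8. *Ptprc*, which encodes CD45, moved with it, from 2.39 to 12.1 CPM in endothelial-like cells (log2 2.34), and cells with a *Ptprc* UMI made up 1.69% and 5.45% of that class. Without the cells with a *Ptprc* UMI, *Coro1a* was at 0.751 and 2.37 CPM there (log2 1.66), while *Gdpd3* had 341 and 3267 UMIs (log2 4.47). What part leukocyte RNA has in the *Coro1a* difference was not tested.

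Counted at a threshold of 2-fold, in either direction and among genes with at least 20 UMIs in a class, 1 of the 8 neighbors passed in endothelial-like cells, against 7.02% of 15196 genes. None of 8 passed in T-like cells (11.3% of 12572 genes), none of 7 in B-like cells (7.12%) and none of 7 in macrophage-like cells (7.06%). In fibroblast-like, pericyte-like and epithelial-like cells 1 of 7 passed (5.37%, 5.95% and 6.31% of all genes), as in putative tumor cells (8.37%). The neighbor that passed was *Coro1a* in each. Its log2 ratio fell under 2-fold in putative tumor cells with at least 3 *Hmga2* UMIs (0.25), in fibroblast-like cells at a minimum of 2000 detected genes (0.52) and in epithelial-like cells from marker gates (0.59), and in endothelial-like cells it ran from 1.24 to 4.66 over the alternatives. The median log2 ratio of the neighbors lay between −0.06 in epithelial-like cells and 0.17 in B-like cells, and that of all genes tested in the 8 classes between −0.02 and 0.03. With these shares of all genes, the counts of neighbors are near the background.

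**Figure D4:**
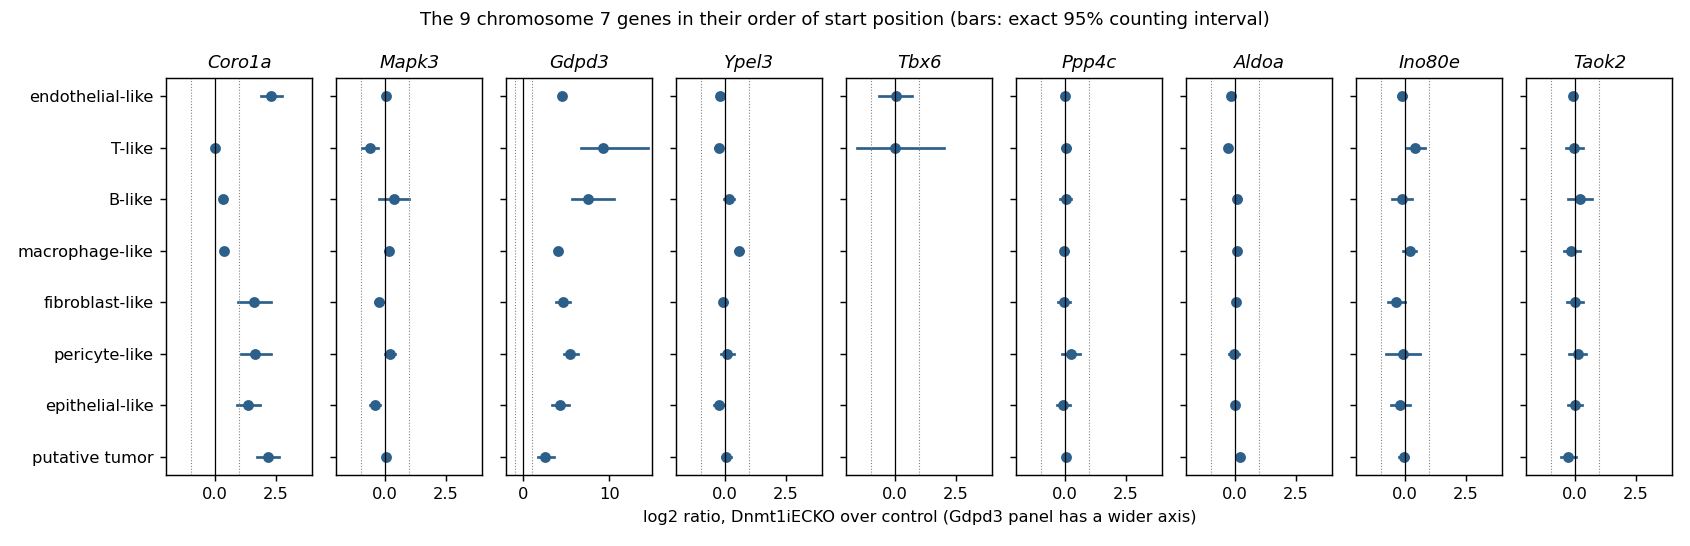
Log2 ratio of Dnmt1iECKO over control for the 9 genes (panels, in order of start position) in 8 cell classes, with exact 95% counting intervals, a solid line at 0 and dotted lines at 2-fold. Gdpd3 (wider axis) lies between 2.52 and 9.20, and the other genes lie near 0 except Coro1a in classes with few leukocyte transcripts; genes under 20 UMIs in a class, such as Tbx6 in 6 classes, are not drawn.

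Summed over all kept cells without regard to type, some neighbors differed more than within endothelial-like cells. The classes also made up different shares of the libraries, and their part was not tested. *Mapk3* was then at a log2 ratio of −0.66 and *Taok2* at −0.87, against 0.06 and −0.08 within endothelial-like cells. *Coro1a* differed less over all kept cells, at 1.68 against 2.31 within endothelial-like cells. *Aldoa* turned direction, at 0.31 (0.29 to 0.34) over all kept cells and −0.17 within endothelial-like cells. *Ypel3*, *Ppp4c* and *Ino80e* were at −0.05, 0.09 and 0.02, and *Tbx6* at −0.35 (−0.80 to 0.09). *Gdpd3* was at 4.57 over all kept cells and 4.46 within endothelial-like cells.

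Farther along the chromosome, 51 genes, *Gdpd3* among them, that start within 500 kb of the *Gdpd3* start had at least 100 UMIs. Of the 45 besides *Gdpd3* with at least 20 UMIs in endothelial-like cells, 4 passed 2-fold, or 8.89% beside 7.02% of all genes, all of them higher in Dnmt1iECKO, with a median log2 ratio of 0.01 (quartiles −0.08 and 0.15). Those 4 were *Coro1a*, the T-cell adaptor *Lat* (23 and 40 UMIs), the leukocyte sialoglycoprotein gene *Spn* (12 and 24 UMIs) and the mitotic kinesin *Kif22* (5.55 and 11.6 CPM, log2 1.07). In T-like cells 3 of 43 genes passed (6.98%, beside 11.3% of all genes), *Cln3* (12.3 and 5.12 CPM) and *Apobr* (17 and 5 UMIs) lower and *Gm9967* higher, on 2 and 28 UMIs with an interval that included 0 (−0.41 to 4.69). In macrophage-like cells 3 of 44 passed (6.82%, beside 7.06%), *2510046G10Rik* (5 and 30 UMIs, log2 1.15, −0.23 to 2.88) and *Spn* higher and *Slx1b* lower. In B-like cells 3 of 40 passed (7.5%, beside 7.12%), with *Gm9967* higher (1 and 20 UMIs) and *Kif22* (44 and 39 UMIs, log2 −1.64) and *Dctpp1* (−1.12) lower. In fibroblast-like cells 4 of 38 passed (10.5%, beside 5.37%), *Coro1a* higher and *Slx1b*, *Gm9967* and *2510046G10Rik* lower, the last with an interval that included 0 (−2.51 to 0.08). In pericyte-like cells 3 of 34 passed (8.82%, beside 5.95%), *Coro1a* higher and *Slx1b* (19 and 6 UMIs, −2.64 to 0.36) and *Tbc1d10b* (37 and 10 UMIs, −2.42 to −0.21) lower. In epithelial-like cells 2 of 39 passed (5.13%, beside 6.31%), *Coro1a* higher and *Kif22* lower (25 and 6 UMIs, log2 −1.43). *Kif22* was thus higher in endothelial-like cells and lower in B-like and epithelial-like cells, a difference that was not tested.

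*Slx1b*, a subunit of a structure-specific endonuclease that lies 70549 bp before *Gdpd3*, was lower in several host classes. It was at 9.28 and 4.98 CPM in endothelial-like cells (log2 −0.90, −1.19 to −0.61), 3.25 and 1.45 in macrophage-like cells (−1.17, −1.98 to −0.34) and 6.40 and 3.03 in fibroblast-like cells (−1.08, −1.88 to −0.31). In putative tumor cells it was at 3.37 and 3.85 CPM (0.19, −0.35 to 0.76). *Gm9967*, which overlaps *Gdpd3* on the other strand, had 73 and 37 UMIs in endothelial-like cells, or 1.36 and 1.51 CPM. The kit marks the strand of a read, but the strand setting of the counting is not given in the sources used here.

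**Figure D5:**
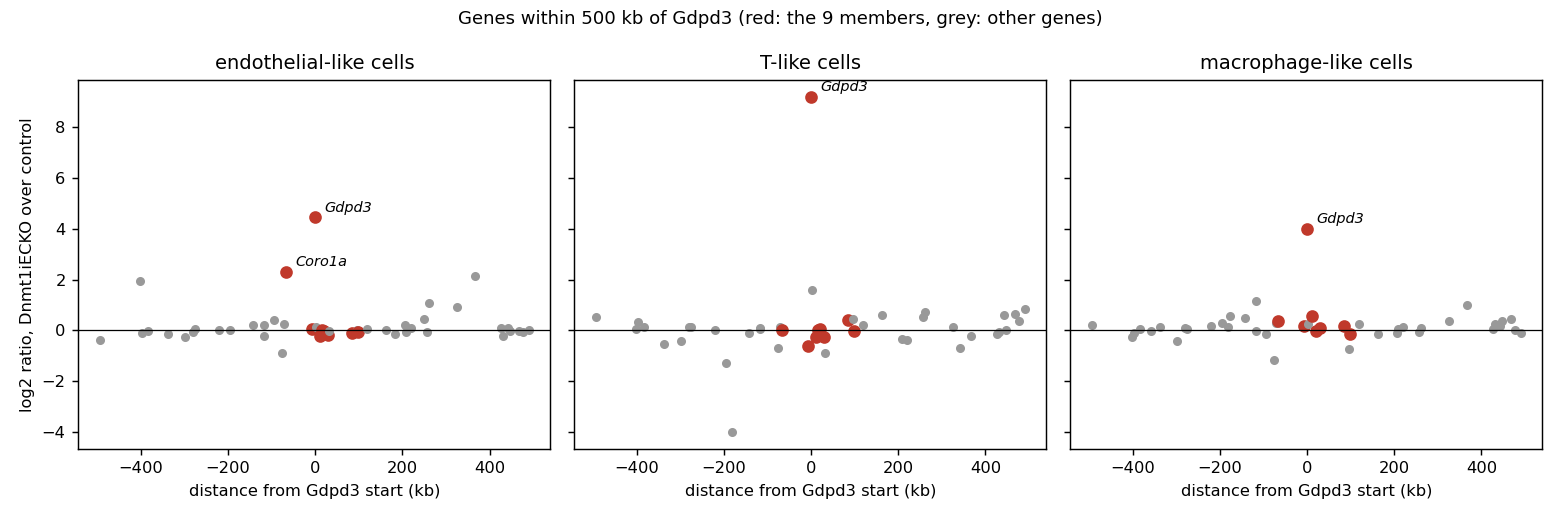
Log2 ratio of Dnmt1iECKO over control against the distance of a gene's start from the Gdpd3 start in kb, for genes within 500 kb in endothelial-like, T-like and macrophage-like cells (red, the 9 members; grey, other genes). Gdpd3 stands at 4.46, 9.20 and 4.0, and in the endothelial-like panel Coro1a is the member nearest to it at 2.31.

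Across the genome, likeness to *Gdpd3* was measured as the smallest log2 ratio over the 7 host classes, for 8568 genes with at least 10 UMIs in the Dnmt1iECKO library in each class. *Gdpd3* itself, at 4.0, was chosen by these values and is admitted through the library in which it is high, so its place is no result. Among the genes most like it were *Wdfy1* on chromosome 1 (0.78), *Pianp* (0.73), *Gm10076* (0.67) and *Gm47283* (0.67), and then *Zc3h6*, *Spsb1*, *Cirbp* and *Gm48099* at 0.42 to 0.40. *Wdfy1*, an endosomal adaptor of Toll-like receptor signaling, was at 22.1 and 51.4 CPM in endothelial-like cells (log2 1.22), at 1.21 in macrophage-like cells and at 0.17 in putative tumor cells. None of these named genes lies on chromosome 7.

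Genes that act with the members were followed as fixed lists. In endothelial-like cells 0 of 18 tested genes of lysophosphatidic acid and glycerophosphodiester metabolism passed 2-fold, with a median log2 ratio of 0.04, from *Pla1a* (−0.19) to *Plpp2* (0.45). The related enzymes *Gdpd1*, *Gdpd5* and *Gde1* were at 57.7 and 54.2, 17.5 and 18.1, and 29.4 and 27.2 CPM. *Enpp2*, which encodes the secreted lysophosphatidic acid producer autotaxin, was at 62.5 and 63.9 CPM, and the receptor gene *Lpar6* at 44.5 and 49.4 CPM. In T-like cells 4 of 15 passed, beside 11.3% of all genes there, among them *Gdpd1* (7 and 90 UMIs, 1.87 and 5.12 CPM) and *Enpp2* higher, and the phosphatase gene *Plpp3* lower (7.22 and 2.22 CPM). The DNA methylation genes had 2 of 7 members past 2-fold in T-like cells, *Uhrf1* and *Tet1*, both higher, beside the same 11.3%. The endothelial gene *Cdh5* was also lower in T-like cells (17.4 and 3.01 CPM), and the *Arpp21*-led T-like cluster had no control cell. The part of either in these T-like values was not tested. In macrophage-like cells 1 of 16 genes of the lysophosphatidic acid list passed, *Plpp1*, lower, beside 7.06% of all genes. In fibroblast-like cells *Uhrf1* (1 of 7) and the coronin gene *Coro2a* (1 of 5) passed, both higher, beside 5.37%. No other list had a member past 2-fold in these 3 classes, where the other yippee-like genes had a median log2 ratio of 0.67 in T-like cells over 3 genes.

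In endothelial-like cells 0 of 15 ERK cascade genes passed (median −0.06), with the phosphatase gene *Dusp4* lowest at −0.63 and *Etv4* highest at 0.39. Likewise 0 of 14 glycolysis genes passed, from *Pfkm* (−0.36) to *Hk2* (0.49), and 0 of 6 genes of the protein phosphatase 4 complex, from *Ppp4r2* (−0.11) to *Ppp4r4* (0.43). The INO80 complex had 0 of 13, from *Actr8* (−0.31) to *Ino80c* (0.34), and the other yippee-like genes 0 of 3, from *Ypel5* (0.13) to *Ypel1* (0.22). The other coronins had 0 of 6, from *Coro2b* (−0.35) to *Coro6* (0.33), and the TAO and Hippo kinases 0 of 8, from *Lats2* (−0.18) to *Sav1* (0.12). Of the DNA methylation genes 0 of 7 passed, with *Dnmt1* lowest at −0.87 and *Uhrf1* highest at 0.30.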

How the data were processed

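The UMI counts deposited by the authors came from Cell Ranger 9.0.1 on an mm10 reference, per the labels and the submitters' processing notes, as filtered matrices of whole molecules. Positions came from GENCODE M21 (GRCm38), where 32235 of 32285 identifiers matched. The members and lists were chosen with earlier results of these data known.

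Cells with under 500 detected genes or over 10% mitochondrial counts, and the highest doublet scores (0.4% per 1000 cells), were removed. The study's minimum of detected genes, as printed, would have kept 28 and 52 cells and was not applied. Both libraries were clustered together (2000 variable genes, without the members and genes within 1 Mb of *Gdpd3*; 30 components; Leiden resolution 1.0) in Python 3.11.15 with scikit-learn 1.9.0 and leidenalg 0.10.2. A cluster took the name of the class with the most markers among its 10 leading genes, with ties broken by markers passing. A marker passed if detected in 10% of cells with a log2 fold of 1 after adding 10 CPM. At least 3 markers had to pass, and 1.5 times those of the next class, but pericyte and smooth muscle were not held against each other. Clusters of low depth with no marker of the class among the leading genes stayed unnamed. The naming thresholds were chosen with the clusters in view, and the classes are rebuilt, not the authors' own.

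CPM was computed from UMIs summed within a library and class, and its 95% interval is exact Poisson (scipy 1.17.1). Intervals of ratios are exact, conditional on the summed count, and those of shares are Clopper-Pearson. All cover counting error only, and since there was 1 library per group no test was made. Named genes are the members, *Dnmt1*, genes starting within 500 kb with at least 100 UMIs, the 10 genes most like *Gdpd3*, and the highest and lowest genes of fixed lists, with others named as examples. A gene that this rule names is not reported here. The log2 ratio and its interval were tested on simulated Poisson counts for endothelial-like cells. Clustering, class naming, doublet scores and thinning were not tested in this way.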

Additional observations from a re-analysis of the deposited data

Results flagged for a closer look

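For 4 neighbors the counting intervals of the log2 ratio lay above 0 in one host class and below 0 in another, and the difference between classes was not tested. *Mapk3* was at 0.22 in pericyte-like cells and −0.60 in T-like cells, but at 0.0012 in pericyte-like cells as the mean of CPM over cells, and at 0.88 in T-like cells with marker gates. *Ypel3* was at 0.57 in macrophage-like cells and −0.26 in T-like cells, but at 0.22 in macrophage-like cells as the mean over cells and at −0.026 in T-like cells without a *Cdh5* or *Pecam1* UMI. *Aldoa* was at 0.08 in macrophage-like cells and −0.27 in T-like cells, and at −0.10 in T-like cells without the *Arpp21*-led cluster. *Ino80e* was at 0.42 in T-like cells and −0.36 in fibroblast-like cells, the latter 0.66 with marker gates.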

How the results depend on the processing

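*Gdpd3* was higher in Dnmt1iECKO under all 109 alternatives run over the 8 classes, and 100 of these values lay within the main counting interval. In endothelial-like cells its log2 ratio was 4.64 with classes from marker gates, 4.23 as the mean of CPM over cells, and 4.75 without the 1% of cells with most UMIs of the gene. With marker gates T-like cells gave 4.19, and without cells holding a *Cdh5* or *Pecam1* UMI B-like cells gave 5.31, both with a control count of 0 set to 3. The latter setting, added after seeing the data, gave 2.65 in epithelial-like cells. Putative tumor cells gave 4.53 as the mean over cells, 3.55 for all cells with *Hmga2*, and 1.63 at 3 *Hmga2* UMIs. The causes were not tested.

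Of 799 neighbor values, 726 stayed within the main interval 89 changed sign, and 5 of these did so from an interval that had left out 0, all with marker gates, which left as few as 50 cells. These were *Taok2* in endothelial-like cells (0.095), *Mapk3* in T-like (0.88) and epithelial-like cells (0.26), *Ino80e* in fibroblast-like cells (0.66) and *Ypel3* in epithelial-like cells (0.43). The count of neighbors past 2-fold went from 1 to 0 in fibroblast-like cells at minima of 1000 and 2000 detected genes and without cells holding a *Cdh5* or *Pecam1* UMI, and in epithelial-like cells with marker gates and with the mean over cells. The share of endothelial-like cells with a *Gdpd3* UMI was 7.47% and 57.0% at full depth, 0.846% and 14.9% at 1000 UMIs, and 2.71% and 36.7% at 4000. With a minimum of 5 UMIs in place of 10, *Iglc1* was also at least 2-fold higher in Dnmt1iECKO in all 7 host classes. Its pericyte-like counts were 0 and 6 UMIs, with the control count set to 3. Like *Gdpd3*, it is admitted through the library in which it is high, so its place is no result. For 41 values an alternative left under 20 cells or UMIs and was not run. No paired analysis was possible because each group had 1 library. Depth limits *Gdpd3* in control lymphocytes and *Tbx6* outside endothelial-like cells.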

Other observations

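A gene with the opposite direction, chosen after its values were seen, was *Rpl29* on chromosome 9, which encodes a protein of the large ribosomal subunit. *Rpl29* was at 617 and 130 CPM in endothelial-like cells (log2 −2.25), at −2.51 in T-like, −2.63 in B-like and −2.30 in macrophage-like cells, and at −2.23, −2.42 and −2.31 in fibroblast-like, pericyte-like and epithelial-like cells. In putative tumor cells it was at 1591 and 1379 CPM (log2 −0.21). *Abhd14a*, a hydrolase gene close to *Rpl29* and also outside the fixed lists, was at −0.96 in endothelial-like and −1.13 in T-like cells. In putative tumor cells it was at −0.18. Past 2-fold in either direction were 7.02% of all genes in endothelial-like cells and 11.3% in T-like cells. Other genes around *Rpl29* are not given here, and a difference shared by that region was not tested.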
